A study of Mus musculus with 54 samples.

Results

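Skeletal muscle of untrained C57BL6 mice was set against 6 other tissues of untrained C57BL6 mice, and the genes it expressed above all of them were described. The muscle was represented by 4 control arrays. Liver gave 3 control arrays as the comparison, and brain, spleen, kidney and the subcutaneous and visceral fat depots gave 4 each, which made 27 control arrays out of 54 in the series. Each array was a whole-transcript Affymetrix mouse gene array hybridised with biotin-labelled material from total RNA. All mice were labelled 14 weeks old and of 1 genotype, and carried no transgene in the labels. The other 27 arrays came from mice that had 9 days of acclimation and then 3 weeks of swimming, in sessions of 90 min held 2 times a day and set apart by 4 hours, and were used here only to see whether the same genes stood out in arrays that had not been used to choose them. They comprised 3 muscle arrays and 4 from each other tissue.

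The labels did not say which muscle was taken, or whether the tissues of 1 mouse were shared between groups. No heart was among the tissues. A gene called restricted to muscle is therefore restricted relative to these 6 tissues, and cardiac muscle, which uses many of the same proteins, was not compared. Where nothing says that replicates came from separate animals, p-values measure only the spread between these samples. In bulk tissue, fewer cells of a type and less RNA per cell cannot be told apart.

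Skeletal muscle fibres are built from sarcomeres, in which thick filaments of myosin pull on thin filaments of actin. A fibre contracts when an action potential reaches the transverse tubule, a voltage sensor there opens the calcium channel of the sarcoplasmic reticulum, and calcium bound to troponin frees actin for myosin. A pump then returns the calcium. The ATP for this comes from phosphocreatine, glycogen, glycolysis and mitochondria, and many of the proteins involved exist as forms encoded by separate genes that are used in muscle in place of the forms of other tissues.

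Levels are given as log2(signal + 16) after quantile normalisation over the 27 control arrays, so that 1 unit is a doubling of the sum. The margin of a gene is its muscle mean minus the highest mean among the other 6 tissues. Of 18759 genes, 1617 (8.62%) were higher in muscle than in each of the other tissues, at an adjusted p under 0.05 in limma's one-sided moderated test, where the largest of the 6 p-values stands for the gene. The opposite call, lower than in each other tissue, was made for 515 genes (2.75%), and 810 genes (4.32%) had all 4 muscle arrays below all 23 others. Both counts moved with the scaling: the values as deposited gave 784 higher and 420 lower, and arrays centred on their medians gave 1763 and 274. Median deposited signal was 45.92 to 64.59 in the muscle arrays, with the lowest array of all among them, and 49.48 to 118.65 in the others. Genes higher with a margin of at least 3, that is at least 8-fold, are called restricted to muscle here, and there were 185 of them (0.986%), or 179 and 213 under those scalings. The margin had a median of -0.61 over all genes, which is below 0 because it is taken against the highest of 6 means. At the edge of the restricted set, Kcnj12, Filip1 and Aimp2 had margins of 3.06, 3.05 and 3.04, and Sema6c, Mrgprh and Chad just missed it with 2.98, 2.98 and 2.97.

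The label of the tissue was checked against its marker. Ckm, the cytosolic creatine kinase of muscle, had levels of 13.50, 13.50, 13.44 and 13.44 in muscle control replicates 41, 42, 43 and 44, against a lowest of 5.50, a median of 5.86 and a highest of 8.46 in the 23 arrays of other tissues. Every muscle array thus lay above every other array, and equal values among them come from equal ranks after quantile normalisation. The restricted genes were chosen on these arrays, so their own levels are a description and no check of the label. Over the 185 genes the mean level was 11.29, 11.19, 11.29 and 11.32 in the 4 muscle arrays. Of those 185 genes, 181 had all 4 muscle arrays above all 23 others, which the choice of the genes largely fixes; 1878 (10.0%) of all genes had that pattern.

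Some arrays of other tissues carried muscle transcripts. In liver control replicate 52 the mean of the restricted genes was 6.41, against 5.45 and 5.41 in liver replicates 49 and 50, and Ckm reached 8.46. Ckm was also 7.55 in subcutaneous fat replicate 20 and 7.19 in brain replicate 36. Liver was the next highest tissue for 64 of the 185 restricted genes, and for 22 once liver replicate 52 was left out, so that many margins given against liver rest on that array. The number of restricted genes moved little: it was 186 without that array, and 184 to 190 when any 1 of the 27 arrays was left out.

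**Figure D1:**
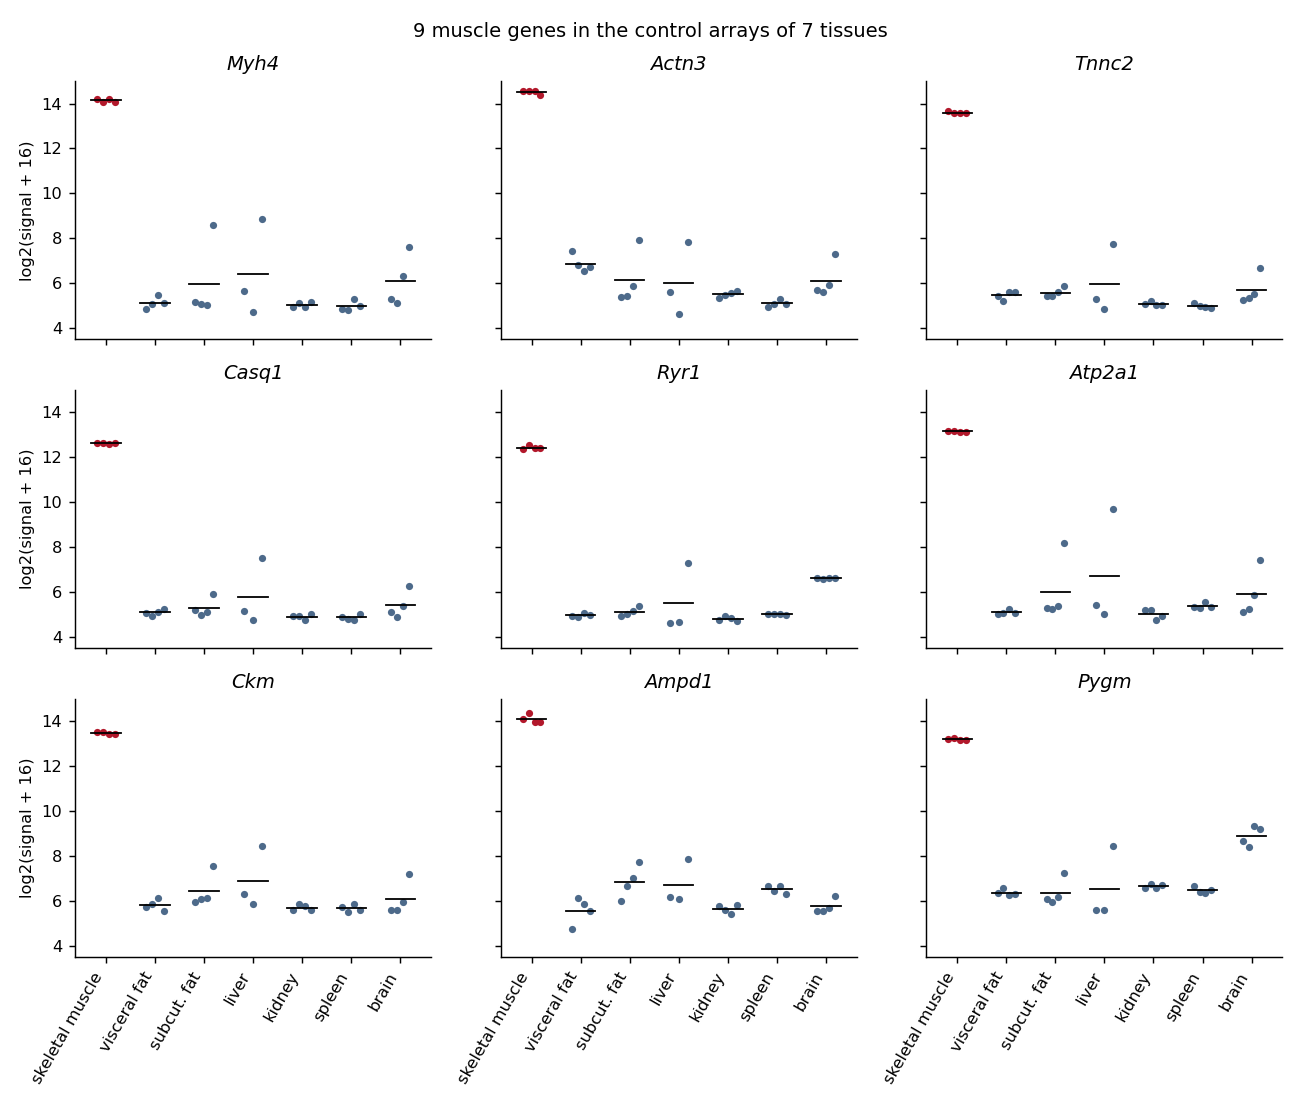
Levels of 9 genes, as log2(signal + 16), in each of the 27 control arrays by tissue, with skeletal muscle first in red and a line at each tissue's mean. All 4 muscle arrays lie far above the rest for each gene, single arrays of liver, subcutaneous fat and brain rise above their groups for several genes, and brain stands above the remaining tissues for Ryr1 and Pygm.

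The contractile genes were the most clearly restricted. Measured genes in the 4 lists of contractile proteins numbered 81. Of these, 69 were higher in muscle (85.2%, against 8.62% of all genes) and 58 were restricted (71.6%, against 0.986%). The count lower in muscle was 1, where 2.75% of all genes were lower. The median margin of the 81 genes was 4.86, against -0.61 over all genes. The same shares of all genes apply to each contractile list below. Without muscle replicate 42 and liver replicate 52, 72 of the 81 were higher and 61 restricted. At this pseudocount the genes with the 10 largest margins of the whole array were Mylk2, Myh4, Actn3, Tnnc2, Myoz1, Actc1, Mylk4, Mybpc2, Trim54 and Mylpf. Each of them encodes a part of the sarcomere, an enzyme that acts on myosin or, for Trim54, a ubiquitin ligase of the Z-disc and microtubules.

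In the list of the thick filament and its regulators, 15 of 17 genes were higher and 13 restricted. Mylk2, the kinase of the myosin regulatory light chain of skeletal muscle, had levels of 13.37, 13.40, 13.27 and 13.30 in muscle, against 4.76 to 5.48 with a median of 5.11 in other tissues. Its margin was 7.97 ± 0.11 (SE; adjusted p = 3.18e-25), the largest of all genes at this pseudocount. A signal of 0 has a level of 4 on this scale, so that the size of such margins depends on the pseudocount: that of Mylk2 was 8.64 with a pseudocount of 1 and 6.86 with 64, where Actn3 (7.13) and Myh4 (6.87) stood above it. Myh4, the fast myosin heavy chain IIb, had levels of 14.21, 14.08, 14.21 and 14.08 in muscle, against a lowest of 4.74, a median of 5.14 and a highest of 8.85 in the other arrays. Its margin was 7.73 ± 0.76 (SE; adjusted p = 1.27e-08), and the highest of the other arrays was liver replicate 52. Its fast relatives Myh1 (chain IIx) and Myh2 (chain IIa) followed with margins of 6.86 and 5.75. Mybpc2 and Mybpc1, the fast and slow myosin binding proteins C, had 7.33 and 4.69. The chaperone Unc45b and the methyltransferase Smyd1, both of which serve myosin folding, had 3.86 and 4.86. Myl1, the fast alkali light chain, was higher in muscle with a margin of 2.72, and fell short of the restricted set because visceral fat reached a mean within that distance. Embryonic Myh3 and extraocular Myh13 did not pass, with margins of 1.13 and 0.26.

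The promoters of 3 genes, 1 from each of the contractile, calcium and energy groups, are shown because their genes were all restricted to muscle. Myh4 and Casq1 have the largest margins of their groups among genes with a single promoter entry, and Ckm is the marker of the tissue. Each runs from 250 bases before the start of the gene to 50 after it, 5′ to 3′ on the strand of the gene, as RefSeq gives it on GRCm38.p6. Capitals mark matches, on either strand, to CAGCTG (a form of the E-box bound by myogenic factors), the CArG box of serum response factor, CATTCC (the TEAD site) and TATAAA. A loose MEF2 pattern, CTA and TAG with any 4 bases between them, was searched too. It allows G and C in the middle, so it also takes in sequences that are not MEF2 sites. The Myh4 promoter at chr11:67237562-67237861, plus strand, reads as follows.
Myh4: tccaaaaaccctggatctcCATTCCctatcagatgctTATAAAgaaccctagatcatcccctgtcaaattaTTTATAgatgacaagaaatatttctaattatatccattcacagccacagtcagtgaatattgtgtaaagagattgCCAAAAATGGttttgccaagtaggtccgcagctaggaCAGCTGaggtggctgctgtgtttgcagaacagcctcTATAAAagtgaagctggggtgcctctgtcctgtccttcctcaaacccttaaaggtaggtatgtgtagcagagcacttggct
Casq1 lies at chr1:172219846-172220145, minus strand.
Casq1: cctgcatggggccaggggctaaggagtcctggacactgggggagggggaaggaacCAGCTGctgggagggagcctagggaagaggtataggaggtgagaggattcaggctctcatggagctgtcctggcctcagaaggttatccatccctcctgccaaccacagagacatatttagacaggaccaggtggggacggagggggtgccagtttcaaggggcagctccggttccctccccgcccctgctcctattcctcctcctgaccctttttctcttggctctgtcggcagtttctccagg
Ckm lies at chr7:19410844-19411143, plus strand.
Ckm: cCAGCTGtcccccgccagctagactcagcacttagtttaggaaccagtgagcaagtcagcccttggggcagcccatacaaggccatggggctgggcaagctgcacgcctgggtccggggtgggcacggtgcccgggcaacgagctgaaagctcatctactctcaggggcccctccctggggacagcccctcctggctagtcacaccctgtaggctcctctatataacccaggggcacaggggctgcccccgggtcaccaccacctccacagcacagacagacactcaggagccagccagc

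Promoter entries were found for 135 of the 185 restricted genes, 156 sequences in all, since some genes have several. CAGCTG occurred in 33.3% of them, against 16.1% of the 18116 promoters of all measured genes. The loose MEF2 pattern occurred in 25 of the 156, against 3.5% of all, and the CArG box in 7.05%, against 1.41%. TATAAA was found in 20.5%, against 11.6%, and CATTCC in 17.3%, against 13.3%. These are counts of letters in a short window, and say nothing about binding.

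In the thin filament list, 14 of 15 genes were higher and 12 restricted. Tnnc2, the calcium-binding troponin C of fast fibres, had levels of 13.65, 13.57, 13.57 and 13.57 in muscle, against a lowest of 4.88, a median of 5.32 and a highest of 7.74 elsewhere. Its margin was 7.61 ± 0.40 (SE; adjusted p = 8.16e-14). The fast partners Tnni2 and Tnnt3, the inhibitory and the tropomyosin-binding troponin subunits, had margins of 6.67 and 6.32. Acta1, the skeletal alpha actin, had levels of 13.85, 13.96, 13.76 and 13.76 in muscle, against 5.85 to 10.82 with a median of 6.64 in other arrays. Its margin was smaller, 4.04 ± 0.67 (SE; adjusted p = 4.64e-05), with visceral fat next and visceral fat replicate 1 the highest of the other arrays. Actc1, the cardiac alpha actin, had a margin of 7.37. The leiomodins Lmod2 and Lmod3 and tropomodulin Tmod4, which set the pointed ends of thin filaments, had 5.72, 5.09 and 6.45. Tpm3 was called lower in muscle than in each other tissue, a call that turned in direction when all probe sets of the gene were averaged.

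The list of the Z-disc, M-band and titin had 32 of 35 genes higher and 29 restricted, and its median margin was 5.60. Actn3, the alpha actinin that cross-links actin at the Z-disc of fast fibres, had levels of 14.56, 14.56, 14.56 and 14.36 in muscle, against 4.66 to 7.93 with a median of 5.61 in the other arrays. The groups did not overlap, and the margin was 7.63 ± 0.51 (SE; adjusted p = 1.01e-11). Ttn, the giant spring of the sarcomere, had a margin of 6.52. The calcineurin-binding Myoz1, Myoz2 and Myoz3 had 7.47, 6.15 and 6.14. Members of the M-band, Myom1 and Myom2, had 6.01 and 5.42. The intermediate filament protein Des, which is also in the smooth muscle list, had 3.73, with spleen next. Fhl1, Csrp3 and Pdlim5 did not pass.

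The complex that ties the fibre to its surroundings had smaller margins, with a median of 1.05. Of 14 genes for the membrane complex and its repair, 8 were higher and 4 restricted. Sgca, alpha sarcoglycan, had levels of 12.34, 12.31, 12.29 and 12.33 in muscle, against 5.07 to 5.85 with a median of 5.19 elsewhere, and a margin of 6.84 ± 0.12 (SE; adjusted p = 2.78e-23). Ano5, Trim72 and Cav3, which act in membrane repair and caveolae, were the other restricted genes, with 5.55, 4.41 and 3.86. Dmd, the dystrophin gene, was higher in muscle with a margin of 2.31 over brain. Sgcb and Dag1, beta sarcoglycan and dystroglycan, had 1.45 and 0.50, and Sgcd, delta sarcoglycan, did not pass with 0.11.

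**Figure D2:**
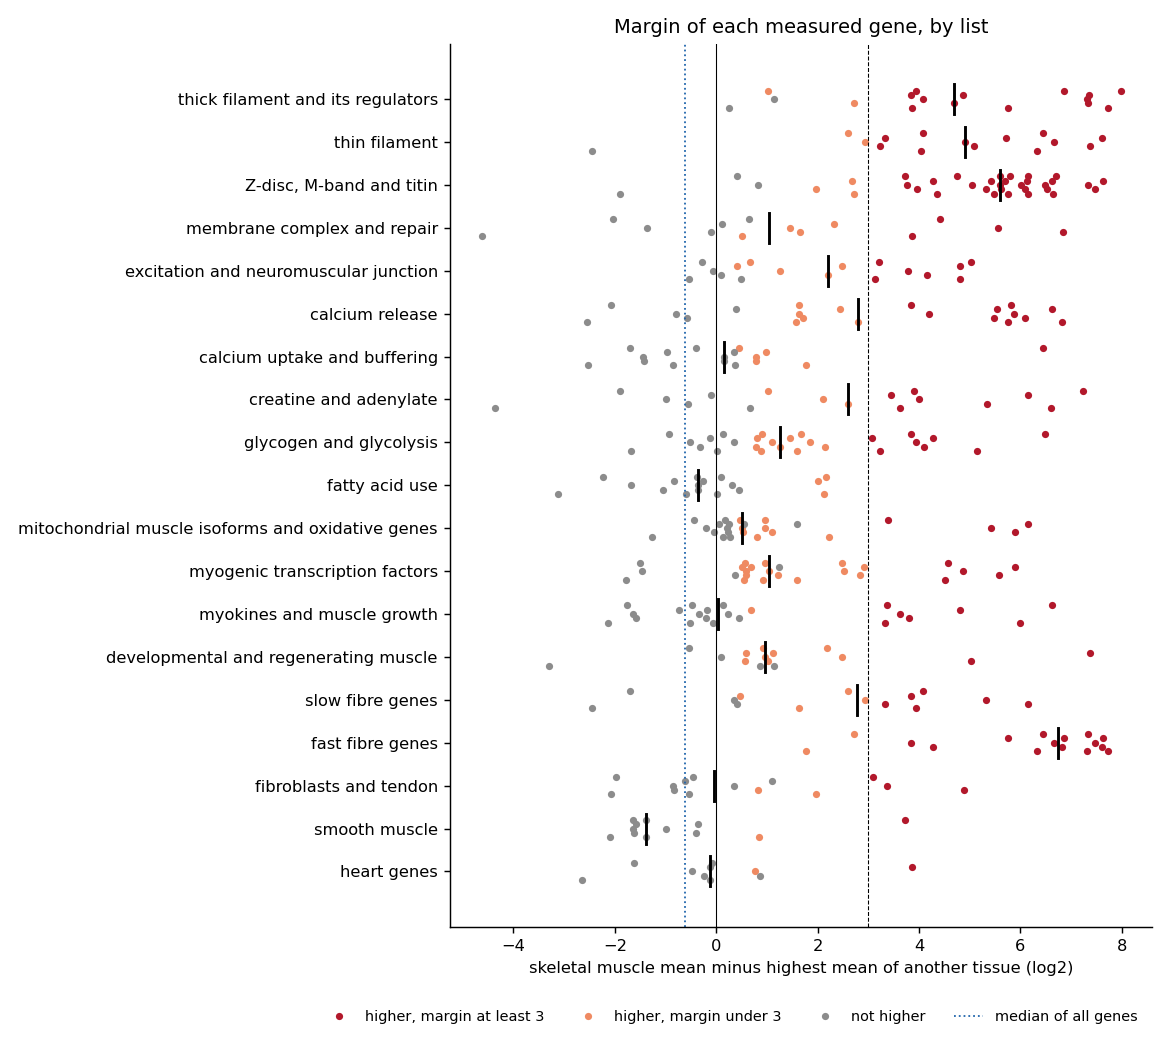
Margin of every measured gene, as the muscle mean minus the highest mean of another tissue in log2 units, by list. Points are genes coloured by call, black bars are list medians, the solid line is 0, the dashed line is the margin of 3 and the dotted line is the median of all genes; contractile and fast fibre genes lie mostly beyond the dashed line, and fatty acid genes lie around 0.

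For calcium handling, restricted genes were found among those of calcium release and of excitation, with 1 among those of uptake and buffering. Of 55 genes in 3 lists, 34 were higher in muscle (61.8%, against 8.62% of all genes) and 18 were restricted (32.7%, against 0.986%). The count by list was 10 restricted of 21 for calcium release, 7 of 17 for excitation and the neuromuscular junction, and 1 of 17 for calcium uptake and buffering.

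Cacna1s, the voltage sensor of the transverse tubule, had levels of 12.30, 12.33, 12.27 and 12.31 in muscle, against 4.84 to 6.92 with a median of 5.06 in other arrays. Its margin was 6.63 ± 0.26 (SE; adjusted p = 2.53e-16). Ryr1, the release channel it opens, had levels of 12.37, 12.53, 12.41 and 12.41 in muscle, against 4.61 to 7.28 with a median of 5.0. Its next tissue was brain, and its margin was 5.82 ± 0.33 (SE; adjusted p = 2.73e-13). For both channels every muscle array lay above every other. Stac3, the adaptor that couples the sensor to the channel, and Cacng1, a subunit of the sensor, had margins of 5.48 and 5.54. Jph1 and Jph2, which hold the tubule and reticulum membranes together, had 3.84 and 5.88.

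Inside the reticulum, Casq1, the fast calsequestrin that stores calcium, had levels of 12.64, 12.62, 12.59 and 12.62 in muscle, against 4.74 to 7.51 with a median of 5.04 elsewhere. The margin was 6.82 ± 0.40 (SE; adjusted p = 7.39e-13), and 7.19 without liver replicate 52, which held the highest of the other values. Hrc, Srl and Trdn, further proteins of the reticulum lumen and junction, had 6.09, 5.76 and 4.20. Jsrp1, Sypl2, Cacnb1, Cacna2d1, Bin1 and Casq2 were higher in muscle with margins between 1.58 and 2.79, and for the last 4 of these brain was the next tissue. Ryr3 was higher in brain, and Fkbp1a, S100a1 and Asph were not higher in muscle than in each other tissue.

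The calcium pump Atp2a1 (SERCA1) was the 1 restricted gene of calcium uptake. Its levels were 13.16, 13.18, 13.14 and 13.12 in muscle, against 4.75 to 9.68 with a median of 5.26 in the others. The margin was 6.45 ± 0.77 (SE; adjusted p = 3.25e-07), and 7.11 without liver replicate 52. Pvalb, the calcium buffer of fast fibres, had levels of 12.67, 12.69, 12.65 and 12.65 in muscle, against 4.11 to 11.10 with a median of 5.01 elsewhere. Brain, where parvalbumin marks a class of interneurons, left it a margin of 1.78 ± 0.56 (SE; adjusted p = 0.0253), a call that was lost when any 1 muscle array was left out and in the swimming arrays. The pump regulators Sln (sarcolipin) and Pln (phospholamban) did not pass, with margins of 0.15 and 0.34. For Sln the muscle values were 4.81, 4.90, 5.50 and 5.31, which overlapped those of the other arrays at 4.68 to 5.17. Store-operated entry, through Stim1 and Orai1, was higher in muscle by 0.79 and 0.99. Calmodulin-dependent kinase Camk2a, calcineurin Ppp3ca and the exchanger Slc8a1 were not, and had brain as the next tissue.

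At the neuromuscular junction, Chrna1, the acetylcholine receptor alpha subunit, had levels of 9.56, 10.16, 9.88 and 9.90 in muscle, against 4.60 to 4.91 with a median of 4.69 elsewhere. The margin was 5.03 ± 0.10 (SE; adjusted p = 1.2e-22). Chrne, the subunit of adult junctions, had 4.16, and the fetal subunit Chrng did not pass with 0.10. Musk and Rapsn, which cluster the receptor, had 4.80 and 3.22. Kcna7 and Clcn1, potassium and chloride channels of the fibre membrane, had 4.80 and 3.78. Ache and Lrp4, the esterase of the synapse and the agrin receptor, were not higher in muscle, since brain and kidney reached its level.

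In energy supply the restricted genes were spread over phosphocreatine and adenylate, glycogen, glycolysis (Eno3 and Pgam2), lactate transport (Slc16a3), oxygen storage (Mb) and mitochondrial proteins of muscle type. Across 85 genes of 4 lists, 44 were higher in muscle (51.8%, against 8.62% of all genes), 19 were restricted (22.4%, against 0.986%) and 1 was lower. Restricted genes made 8 of 17 for creatine and adenylate, 8 of 27 for glycogen and glycolysis, 4 of 25 for mitochondrial genes and 0 of 17 for fatty acid use, where limma called 3 genes higher.

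Ampd1, the muscle AMP deaminase, had levels of 14.08, 14.36, 13.96 and 13.96 in muscle, against 4.73 to 7.85 with a median of 6.07 in the other arrays. The margin was 7.24 ± 0.34 (SE; adjusted p = 2.36e-14), the largest of the energy genes. Its partner in the purine nucleotide cycle, Adssl1, had 4.00. The margin of Ckm was 6.60 ± 0.44 (SE; adjusted p = 9.13e-12). Ckmt2, the creatine kinase of muscle mitochondria, had levels of 12.43, 12.35, 12.53 and 12.52 in muscle, against 4.90 to 8.47 with a median of 5.09 elsewhere. Its margin of 6.14 became 7.17 without liver replicate 52. Slc16a3, a lactate transporter (MCT4), had 5.34, and the AMP kinase subunits Prkag3 and Prkab2 had 3.90 and 3.44. Creatine synthesis stood the other way: Gatm was highest in kidney and Gamt in liver, with margins of -4.36 and -1.89.

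For glycogen, Ppp1r3a, the muscle subunit that directs phosphatase 1 to glycogen, had levels of 12.04, 12.10, 12.03 and 12.06 in muscle, against 4.75 to 6.57 with a median of 4.96 elsewhere. Its margin was 6.48 ± 0.24 (SE; adjusted p = 7.18e-17). Pygm, the muscle glycogen phosphorylase, had levels of 13.21, 13.24, 13.15 and 13.14, against 5.59 to 9.32 with a median of 6.56. Brain was next, and the margin was 4.28 ± 0.40 (SE; adjusted p = 4.1e-09). The phosphorylase kinase subunits Phka1 and Phkg1 had 3.94 and 3.22. Ppp1r27 and Ppp1r3c, a subunit and a glycogen-targeting subunit of phosphatase 1, had 5.15 and 3.06. In glycolysis itself the restricted genes of the list were Eno3 and Pgam2, the enolase and mutase of muscle, at 4.11 and 3.85. Pfkm, Hk2, Pkm, Tpi1 and Pgk1 were higher with margins between 0.80 and 1.68. Aldoa, Ldha and Gapdh did not pass, with margins of 0.35, 0.01 and -0.51 against visceral fat.

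Mitochondrial genes showed the same division. Mb, the oxygen store myoglobin, had levels of 12.49, 12.38, 12.62 and 12.58 in muscle, against 4.76 to 10.19 with a median of 5.13 elsewhere. The highest of the other values was that of liver replicate 52, and the margin of 5.90 ± 0.74 (SE; adjusted p = 7.6e-07) became 6.92 without it. Cox6a2, the muscle form of a cytochrome oxidase subunit, had levels of 11.69, 11.86, 11.82 and 11.64 in muscle, against 5.13 to 7.21 with a median of 6.07, and a margin of 5.42 ± 0.25 (SE; adjusted p = 1e-14). Cox7a1 had 3.38. Genes of the citrate cycle and respiratory chain that all tissues use had small margins: Cs, Sdha and Atp5b had 0.05, 0.16 and -0.21 and did not pass, with visceral fat or kidney next. Ppargc1a, a coactivator of mitochondrial genes, had -0.44 with kidney next. Among fatty acid genes, Fabp3, Pdk4 and Ucp3 were higher with margins of 2.12, 2.16 and 2.01. Fabp3, the fatty acid binding protein of muscle and heart, had levels of 11.73, 11.44, 12.06 and 11.84 in muscle, against 4.52 to 9.77 with a median of 5.43 elsewhere, with kidney next.

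Many of these proteins have a form listed here as the muscle form and further forms, and the 36 listed steps had 34 muscle forms and 62 other forms on the array. The other forms were not all forms of other tissues, since slow fibre forms such as Tnnc1 and Tnnt1 and the cardiac Actc1 were counted among them. Of the muscle forms, 31 were higher than in each other tissue and 24 were restricted, where 8.62% and 0.986% of all genes were. The median margin of the muscle forms was 3.97. Of the other forms, 8 were higher (Tnnc1, Tnni1, Tnnt1, Tnnt2, Actn2, Casq2, Jph2 and Actc1). A further 43 were neither and 11 (17.7%) were lower in muscle than in each other tissue, against 2.75% of all genes. The median margin of the other forms was -2.53. Brain was the highest tissue for 22 of the other forms. Cox8b, Aldoa and Ldha were the muscle forms that did not pass.

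At 9 steps with a higher muscle form, some other form was lower in muscle than in each other tissue. Further forms of such a step were not always low, as Pfkp and Ampd3 lay 0.99 and 2.66 above their lowest other tissue. At the fatty acid binding protein step the low form was Fabp7, whose highest tissue was brain. The 9 steps included phosphofructokinase (Pfkm 1.68 above the next tissue, Pfkl 0.82 below the lowest), AMP deaminase, and cytochrome oxidase subunit 6a. Cox6a1, the general form of that subunit, had a muscle mean of 8.65 ± 0.10 (SD, n = 4), and was 1.21 below spleen, the lowest other tissue (adjusted p = 6.41e-05). Pgam1 was 0.82 below spleen (adjusted p = 6.1e-06), Ampd2 was 0.73 below visceral fat (adjusted p = 0.000105), and Actn1, the non-muscle alpha actinin, was 1.04 below brain (adjusted p = 0.00169). These low calls depended on the scaling: with arrays centred on their medians, 2 of the 11 genes, Ampd2 and Actn1, were still called, and Actb turned to 0.51 above the lowest other tissue, while 9 of the 11 were still called on the values as deposited. Some forms listed as other forms were themselves restricted, as Actn2 (5.69) beside Actn3, Jph2 (5.88) beside Jph1, and Actc1 beside Acta1.

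**Figure D3:**
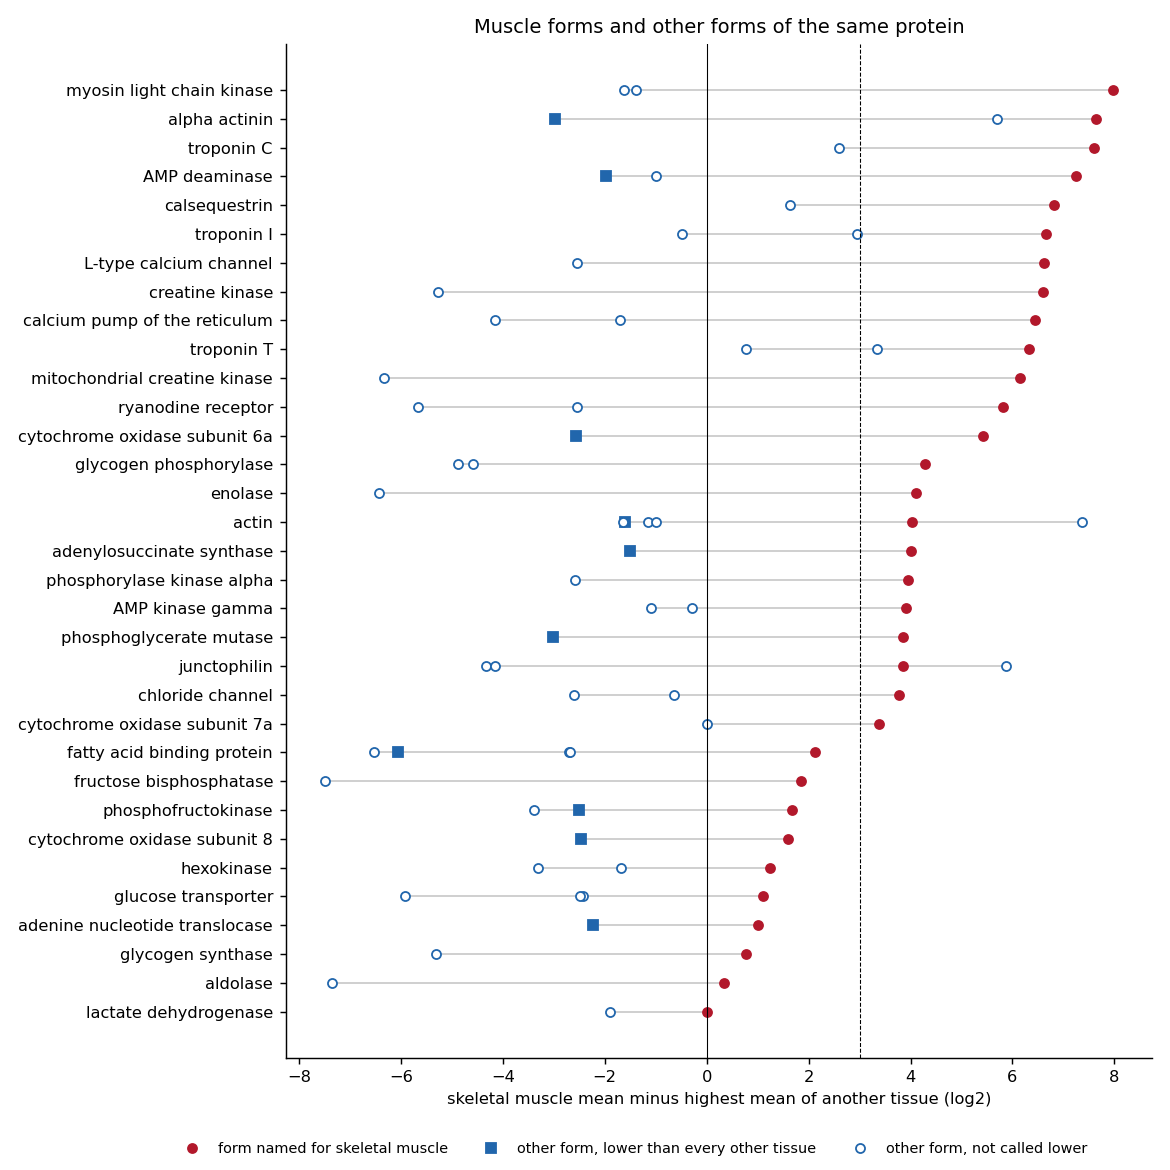
Margins in log2 units of muscle forms (red) and other forms (blue) of the same protein at the 33 steps with both measured, ordered by the margin of the muscle form. Filled squares are forms called lower in muscle than in each of the 6 other tissues; 10 of the 11 such forms appear, since the step of Cpt1a had 1 kind of form measured.

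Fast and slow fibre genes differed in how evenly they were expressed among the muscle arrays. All 16 genes of the fast list were higher in muscle and 14 restricted, where 8.62% and 0.986% of all genes were. Their median margin was 6.74, and the mean of the list ranged from 13.05 to 13.14 over the 4 arrays. Of 14 slow genes, 10 were higher and 6 restricted, and the mean of that list ranged from 7.93 to 10.21. With each other tissue fitted alone with muscle, 3 of those 6 kept their call (Ankrd2, Myoz2 and Tnnt1), and Myh7, Myl2 and Myl3 lost theirs, with adjusted p-values of 0.105, 0.0513 and 0.0609. Myh7, the slow myosin heavy chain, had levels of 10.34, 5.06, 11.43 and 11.32 in muscle control replicates 41 to 44, against 4.86 to 6.20 with a median of 5.10 in other arrays. Replicate 42 thus lay within the range of the other tissues, and the other 3 lay far above it. Myl2, a slow light chain, had 10.37, 6.06, 11.01 and 11.03, against 5.03 to 6.70 with a median of 5.38 elsewhere. Myl3 had 10.29, 5.82, 11.10 and 10.86, against 5.03 to 6.65 with a median of 5.28. Tnnt1, the slow troponin T, had 11.46, 8.04, 12.15 and 12.02, against 6.73 to 8.51 with a median of 7.03. These 4 genes were those with an SD of at least 1 among the 185 restricted genes, whose median SD was 0.11. Their margins were 4.07, 3.83, 3.93 and 3.33, and 5.56, 5.01, 5.16 and 4.28 without replicate 42. Without both that array and liver replicate 52, 8 of the 14 slow genes were restricted, 191 genes in all.

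Replicate 42 also differed in other genes. It lay at least 2 units from the median of the other 3 muscle arrays for 36 genes upward and 12 downward, against at most 5 upward and 7 downward for any other muscle array. Most of the 36 genes were liver genes, led by Cyp3a11 (4.56 above that median), Alb (4.41), Mup3 (4.14) and Mup20 (3.93). Myh3 (3.12) and Myl4 (2.68) were also among them. Myh3, the embryonic myosin, had 5.39, 8.51, 5.45 and 4.97 in replicates 41 to 44, against 4.69 to 5.04 in the other tissues, so replicate 42 was the high one. Myl4, the embryonic and atrial light chain, had 8.13, 10.87, 8.19 and 8.22, against 5.41 to 8.46. Mymk, the fusion protein myomaker, had 6.11, 7.53, 6.16 and 6.15, against 5.40 to 6.03, and its call as higher (margin 0.59, adjusted p = 0.0427) was lost without that array, with a margin of 0.24 and an adjusted p of 0.139, and also without 1 of several other arrays. Adipoq, an adipocyte hormone, was low there, at 8.62, 6.61, 8.65 and 8.46. The liver product Alb had 6.91, 11.32, 6.31 and 9.50, and Apoa1 had 5.81, 9.26, 6.02 and 7.45, so that liver transcripts differed between muscle arrays as well. The part of any of these in the slow gene values was not tested.

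**Figure D4:**
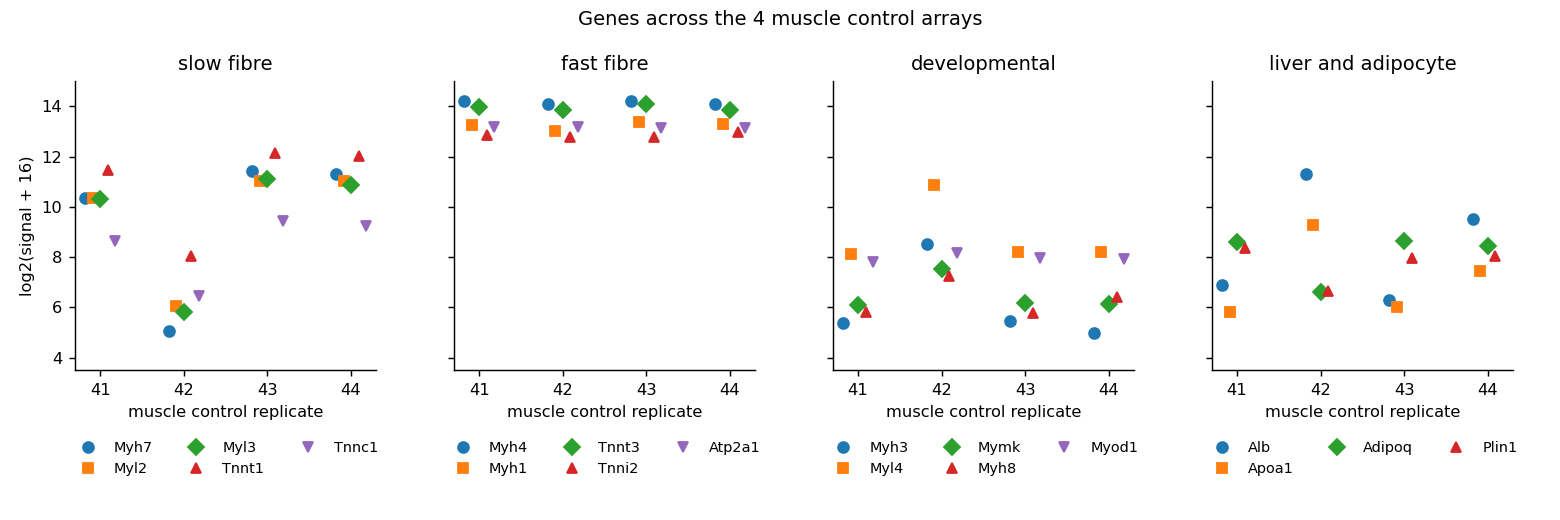
Levels, as log2(signal + 16), of slow, fast, developmental, and liver and adipocyte genes in the 4 muscle control arrays. The slow genes are lowest and Myh3, Myl4 and Mymk highest in replicate 42, while the fast genes and Myod1 vary little.

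Among regulators, 20 of 25 muscle transcription factors were higher in muscle (80.0%, against 8.62% of all genes) and 5 were restricted, where 0.986% of all genes were. Myf6 (MRF4), the myogenic factor of mature fibres, had levels of 12.31, 12.46, 12.44 and 12.35 in muscle, against 5.72 to 6.72 with a median of 6.21 elsewhere. Its margin was 5.89 ± 0.11 (SE; adjusted p = 1.06e-22). The other restricted factors were Vgll2, Smyd1, Eya4 and Tbx15, at 5.57, 4.86, 4.58 and 4.50. The other myogenic factors Myod1, Myog and Myf5 were higher with smaller margins of 2.48, 0.92 and 0.57. Myod1 had levels of 7.79, 8.15, 7.98 and 7.92, against 5.11 to 5.52 in the other arrays, with no overlap. Mef2c did not pass, with a margin of 1.24 over spleen. Pax7, the factor of satellite cells, was higher by 0.95.

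Of 22 myokines and growth genes, 8 were higher (36.4%, against 8.62% of all genes) and 7 were restricted (31.8%, against 0.986%). Mstn, myostatin, the inhibitor of muscle growth, had levels of 11.08, 11.51, 10.98 and 11.39 in muscle, against 4.57 to 5.48 with a median of 4.95 elsewhere. The margin was 6.00 ± 0.14 (SE; adjusted p = 7.14e-21). The ubiquitin ligases of atrophy, Trim63 (MuRF1) and Fbxo32 (atrogin-1), had 6.62 and 3.81, and the secreted factor Ostn had 3.62. Fndc5, Il15 and Il6, which encode factors described as released by exercising muscle, had 0.13, -0.18 and -0.21 and did not pass.

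Outside the lists stood 77 of the 185 restricted genes. Nmrk2, a nicotinamide riboside kinase, had levels of 11.83, 12.12, 11.86 and 12.02 in muscle, against 4.35 to 5.10 with a median of 4.70 in other tissues, and a margin of 7.19 ± 0.12 (SE; adjusted p = 3.36e-23). Of 18 measured genes named Asb, whose products recruit substrates to ubiquitin ligases, 9 were restricted, where 0.986% of all genes were, led by Asb14 and Asb5 with margins of 7.19 and 7.0. Asb14 had levels of 12.34, 12.37, 12.26 and 12.25 in muscle, against 4.83 to 5.31 elsewhere. Of 35 measured Klhl genes, 5 were restricted, among them Klhl31, Klhl40 and Klhl41, which are known for roles in muscle. Rpl3l, a form of a ribosomal protein found in heart and skeletal muscle, had a margin of 6.45. Bves and Popdc3, membrane proteins of the Popeye family, had 6.19 and 5.19.

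Some restricted genes were neighbours in the annotation (assembly GRCm38.p6). Within 3 places of each other along the order of measured genes there were 11 such runs with 25 of the 185 genes. How many such runs any other 185 measured genes would form was not worked out, so the count is a description only. The fast myosin genes Myh2, Myh1 and Myh4 formed 1 run on chromosome 11. On chromosome 7, Tnni2, Prr33, Tnnt3 and Mir675 formed another, with Lsp1 and Mrpl23 between them at margins of -2.34 and 1.05. Popdc3 and Bves were adjacent on chromosome 10, and Myoz1 and Synpo2l on chromosome 14.

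Of the restricted genes 180 were annotated as protein coding and 3 as microRNA genes, namely Mir675, Mir133a-1 and Mir1a-2. Mir675 had levels of 10.50, 11.16, 11.16 and 10.66 in muscle, against 4.88 to 6.56 with a median of 5.11 in other arrays. Its margin was 5.22 ± 0.23 (SE; adjusted p = 3.05e-15). miR-675 is processed from H19, an imprinted noncoding RNA, and the array does not show which of the transcripts was bound. Its mature sequences, from RefSeq on GRCm38.p6, lie at chr7:142577112-142577133 for the 5p arm and chr7:142577078-142577099 for the 3p arm, both on the minus strand, and are shown to give the seeds, bases 2 to 8, in capitals. The seeds of the arms differ.
miR-675-5p: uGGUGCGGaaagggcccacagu
miR-675-3p: cUGUAUGCccuaaccgcucagu
The microRNAs miR-1 and miR-133 are known for muscle. Mir133a-1 and Mir1a-2 had margins of 3.83 and 3.09. Their second copies, Mir133a-2 and Mir1a-1, were also higher in muscle, with margins of 2.80 and 1.64. Copies share nearly all of their mature sequence, so that probe sets may not tell them apart.

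At the other end, the genes furthest below all other tissues were Ptk2b, Alcam, Mgat5, Abhd2 and Sfxn1. Ptk2b, a calcium-activated tyrosine kinase, was 3.56 below liver, the lowest of the others (adjusted p = 3.08e-09), and Alcam, an adhesion molecule, was 2.81 below spleen (adjusted p = 1.55e-10). The differences for Mgat5, Abhd2 and Sfxn1 were -2.22, -2.20 and -2.17.

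Genes of other cell types were looked at in the same way. Of 15 endothelial genes limma called 0 higher in muscle, and 0 had an unadjusted p under 0.05. Their median margin of -0.55 was close to the -0.61 of all genes, and at a background of 8.62% a count of 0 in so few genes is not a result about them. Of 12 adipocyte genes limma called 0 higher (1 at an unadjusted p under 0.05), with a median of -4.03, and of 13 blood and immune genes 0 (0 at an unadjusted p under 0.05), with -4.52. Both fat depots and spleen were among the compared tissues, so such medians do not show that muscle lacked these cells. The mean of the adipocyte list was 7.5 to 8.8 in the muscle arrays and 7.5 to 8.3 in kidney. In liver it was 5.5 to 5.9, in spleen 5.8 to 6.3 and in brain 5.2 to 5.4. Visceral fat had 11.0 to 11.3 and subcutaneous fat 10.1 to 11.5. The fibroblast and tendon list had 5 of 14 higher (35.7%, against 8.62% of all genes). In it 3 were restricted (21.4%, against 0.986%): Kera, Tnmd and Thbs4, at 4.89, 3.36 and 3.09. Kera, a proteoglycan of tendon and cornea, had levels of 10.11, 9.48, 8.86 and 9.30 in muscle, against 4.22 to 4.71 in other arrays. Collagen genes Col1a1 and Col3a1 were not higher. Of 10 heart genes, limma called 2 higher, and Sbk2 alone was restricted at 3.85; Nppa and Myl7, defining genes of the atrium, had -0.09 and -0.13.

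The swimming arrays, normalised on their own, were samples not used to choose the genes. In them 1546 genes (8.24%) were higher in muscle than in each other tissue and 176 (0.938%) were restricted. Of the 185 genes restricted in control arrays, 170 (91.9%) were among those 176, or 96.6% of them. All 185 had a swimming margin above 0, with a lowest of 2.03 and a median of 4.70, against a median of 4.90 in the control arrays that chose them. Myh7 had 9.27, 11.06 and 11.49 in the 3 swimming muscle arrays, and Tnnt1 had 7.17, 11.58 and 12.15, so that a muscle array with a low value of Tnnt1 occurred there too. Fabp3 had a swimming margin of 1.12 and did not pass in those arrays.

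**Figure D5:**
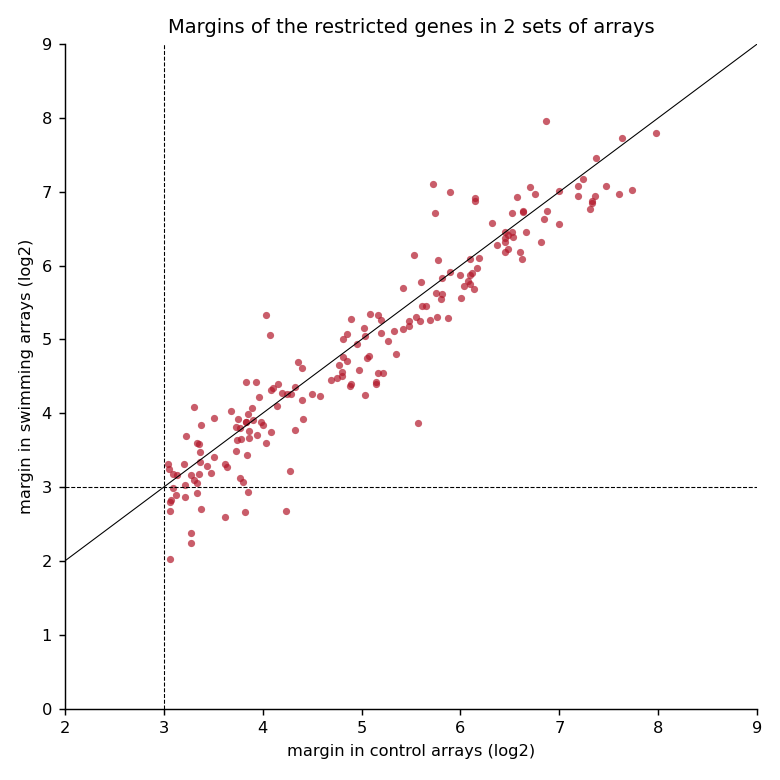
Margins of the 185 restricted genes in log2 units, from the control arrays (horizontal) and the swimming arrays (vertical). The solid line marks equal margins and the dashed lines mark 3; 170 of the points lie above the horizontal dashed line.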

How the data were processed

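Total RNA from 7 tissues had been extracted with Trizol and labelled with biotin, per the labels. The deposited values were linear intensity values of 25917 probe sets, and PLIER and limma are named in the submitters' processing notes, with settings and genome build not given in the sources used here. Arrays of the same group differed in their 75th percentile by up to 1.65-fold, so log2(intensity + 16) was quantile normalised over the 27 control arrays, and the 27 swimming arrays apart. Median deposited signal was 45.92 to 64.59 in the muscle control arrays and 49.48 to 118.65 in the others, and the number of arrays limits the precision.

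Of the probe sets, 21086 carried 1 symbol, 1867 several and 2964 none. Only the first were used, and the probe set with the highest mean over control arrays stood for each of 18759 genes, with no filter on dim probe sets. Because no detection calls were given, a low level does not show absence. Related genes may share probes, which was not tested.

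One limma 3.58.1 fit (R 4.3.3) of 7 group means gave muscle minus each tissue, one-sided. The largest p of 6 was adjusted (Benjamini-Hochberg) over all genes. In simulated data of this design the test recovered 46 of 50 genes raised by 1 log2 unit over the next tissue and called 7 of 18559 unchanged ones. The simulated noise was independent between genes and arrays, with the same spread in all tissues, as the test assumes. Departures of a whole array, as in liver replicate 52 or muscle replicate 42, were not simulated, so these rates may be too favourable. Lists held 463 names, 419 of them measured. The members and lists were chosen with earlier results of these data known. Named genes were list members, forms of the listed steps, the 25 largest margins and the 10 largest deficits; others named were chosen after their values were seen. Replicate numbers differ between all groups and do not say which mouse gave a tissue. No samples were therefore paired, and any sharing of mice between tissues was not modelled. Alternatives were other scalings, pseudocounts, filters, probe set rules, fits, array weights and leaving out arrays. Leaving out muscle replicate 42 together with liver replicate 52 was added after seeing the data. Figures were drawn with matplotlib.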

Additional observations from a re-analysis of the deposited data

Results flagged for a closer look

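Among 71 groups of 4 arrays examined, in genes and lists named in the report, 13 held 1 array that stood apart by Dixon's test at the 95% level; chance gives about 1 in 20, and many of the genes were picked with the differences of replicate 42 known. Of these, 10 concerned muscle control replicate 42. It was low for Myh7 (5.06, against 10.34 to 11.43 in the other 3), Myl2 (6.06), Myl3 (5.82), Tnnt1 (8.04) and Adipoq (6.61). It was high for Myh3 (8.51), Myl4 (10.87), Mymk (7.53), Igf2 (9.79, against 7.99 to 8.01) and the mean of the list of developmental and regenerating muscle (8.24, against 7.43 to 7.52).

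For Actn3, replicate 44 had 14.36, and for Tnnc2, replicate 41 had 13.65; the other 3 arrays were equal in each, at 14.56 and 13.57, as the same rank gets the same value in quantile normalisation. In kidney, replicate 11 had a mean of 5.48 over the restricted genes, against 5.50 in each of the others after rounding.

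Outside the comparison, subcutaneous fat of swimming replicate 23 had a Ckm level of 11.55, above the highest of 8.46 in any control array of the 6 tissues and above 7.09, the highest in the other swimming arrays of those tissues. In it 38 of the 185 restricted genes lay at least 1 unit above the other 3 swimming arrays of subcutaneous fat.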

How the results depend on the processing

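As reported there were 185 genes restricted to muscle. With deposited values 179 were found, with arrays centred on medians 213, with a pseudocount of 64 157, and without the dimmest 40% of probe sets 124, since genes low in 6 tissues have low means; 175, 184, 157 and 124 of these were among the 185. A margin of at least 2 gave 279 genes restricted to muscle and one of at least 4 gave 126. Leaving out 1 array gave 184 to 190 genes restricted to muscle, 1490 to 1814 genes higher in muscle and 435 to 674 genes lower in muscle. Without both muscle replicate 42 and liver replicate 52 there were 191, 1466 and 423. Scaling moved the wider counts: genes higher in muscle and genes lower in muscle numbered 1617 and 515 (75.8% higher), 784 and 420 on deposited values (65.1%), and 1763 and 274 with centred arrays (86.5%). The median margin of all genes, -0.61 as reported, was -0.80 and -0.47 under those settings. Ppargc1b (-0.082) and Pax3 (-0.16) turned in direction on deposited values, the difference of Tpm3 from the lowest other tissue turned to 0.64 with probe sets averaged, and that of Actb to 0.51 with centred arrays; the cause was not tested. Of 214 gene results followed, 21 lost their call without turning in direction on deposited values, 9 with centred arrays and 15 in the swimming arrays. Besides these, 2 turned on deposited values and 1 with centred arrays. Myh7, Myh8, Myl2, Myl3 and Mymk lost their calls when each other tissue was fitted alone with muscle, with fewer samples in each fit. No paired analysis was possible because the labels do not say which tissues came from the same mouse.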

Other observations

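Alb, the main secreted protein of liver, varied widely within some tissues outside liver. Its level ranged from 6.31 to 11.32 in the 4 muscle control arrays and from 8.42 to 10.90 in the 3 swimming muscle arrays. In the spleen control arrays it ranged from 4.53 to 12.50. The range was narrower in the control arrays of kidney (7.24 to 7.70) and brain (4.50 to 5.51).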
